A study of Sus scrofa with 9 samples.

Results

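Mature pig (Sus scrofa) oocytes that had been heated during maturation were compared with oocytes matured without heat. The comparison rests on 6 of the 9 libraries of the series, 3 of control and 3 of heat stress, and describes the 6695 genes, of 23507 measured, whose mean reached at least 10 CPM (a gene's counts scaled to a library of fixed size) in either group. All oocytes are labelled wild type and were taken with compact layers of cumulus cells, the somatic cells that surround the egg. Control oocytes were matured at 38.5 °C to metaphase II (MII), the stage at which the mature egg waits for fertilisation. Heat stress oocytes were kept at 41.5 °C for the first 24 h, starting at the immature germinal vesicle stage, and were then returned to 38.5 °C until MII. The remaining 3 libraries, heat stress plus L-Asp, entered only the estimate of spread between libraries. Each group is labelled as 25 oocytes, and the split of these among libraries is not described, so any p-value reflects the variation of libraries, which may be technical.

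A fully grown oocyte transcribes little or nothing. It carries a store of maternal mRNA, much of it with short poly(A) tails, and during maturation some messages are lengthened at the tail and translated while others lose their tail and are degraded. Oocytes are sensitive to heat during maturation, and the classical heat response in other cells, transcription of chaperone genes by HSF1, depends on active transcription. The cDNA was primed with an oligo(dT) primer, so a change in tail length cannot be told apart from a change in the amount of an mRNA, and fewer cells of a type cannot be told apart from less RNA per cell.

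Libraries held 54965064 to 58361475 counts in control and 46198885 to 53327419 in heat stress. A count was seen for 17433 to 17685 genes in the control libraries and for 14730 to 15808 in the heat stress libraries. The control libraries were close to copies of each other. The median index of dispersion between their scaled counts, which is 1 for independent single counts, was 5.21 to 5.23 for the control pairs and 102 to 109 for the heat stress pairs. The control was therefore treated as 1 preparation, and only the heat stress libraries show how far separate libraries of these oocytes vary. Over the genes described, the median SD of log2 CPM was 0.351 in heat stress and 0.0539 in control. Values below are CPM after TMM scaling, listed for replicates 1, 2 and 3 in that order. The log2 ratio of a gene is that of its mean heat stress CPM to its mean control CPM, with 0.5 CPM added to both.

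Of the 6695 genes, 98 (1.46%) were at least 2-fold higher than the control mean in every heat stress library and 65 (0.971%) were at least 2-fold lower in every one. The higher genes held 19 genes of the cytosolic ribosome, GSTA1 and MGST2 of glutathione use, and TPM4 and TMSB10 of the actin cytoskeleton. The lower genes held the polyubiquitin gene UBB, the ubiquitin conjugating enzyme UBE2T, ID3, and the oocyte genes BMP15 and MOS. In a weaker sense, every heat stress library lay above every control library for 1177 genes (17.6%) and below every one for 1444 genes (21.6%). The median log2 ratio over all genes described was -0.01. These genes, called the 2-fold genes below, were chosen on these same libraries, so their ratios are a description.

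After Benjamini-Hochberg adjustment, the quasi-likelihood test of edgeR called 0 of 15012 genes (0%), with a smallest adjusted p of 0.249. An unadjusted p under 0.05 was given to 579 genes (294 higher and 285 lower). DESeq2 on the same 7 libraries called 172 of 17008 genes (1.01%), 138 higher and 34 lower, among them 64 of the 98 higher genes and 15 of the 65 lower genes. Adjusted p-values from edgeR were 0.249 or more for each gene named below that it tested, and the words higher and lower describe values. With 1 control preparation against 3 libraries, no exact permutation test can reach a p of 0.05. Without heat stress 1 the 2-fold counts were 181 and 104, without heat stress 2 they were 114 and 115, and without heat stress 3 they were 159 and 180. With library totals in place of TMM, the median log2 ratio over all genes moved to 0.18 and the counts to 141 higher and 32 lower, so that 81.5% of the 2-fold genes were higher, against 60.1% with TMM.

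**Figure D1:**
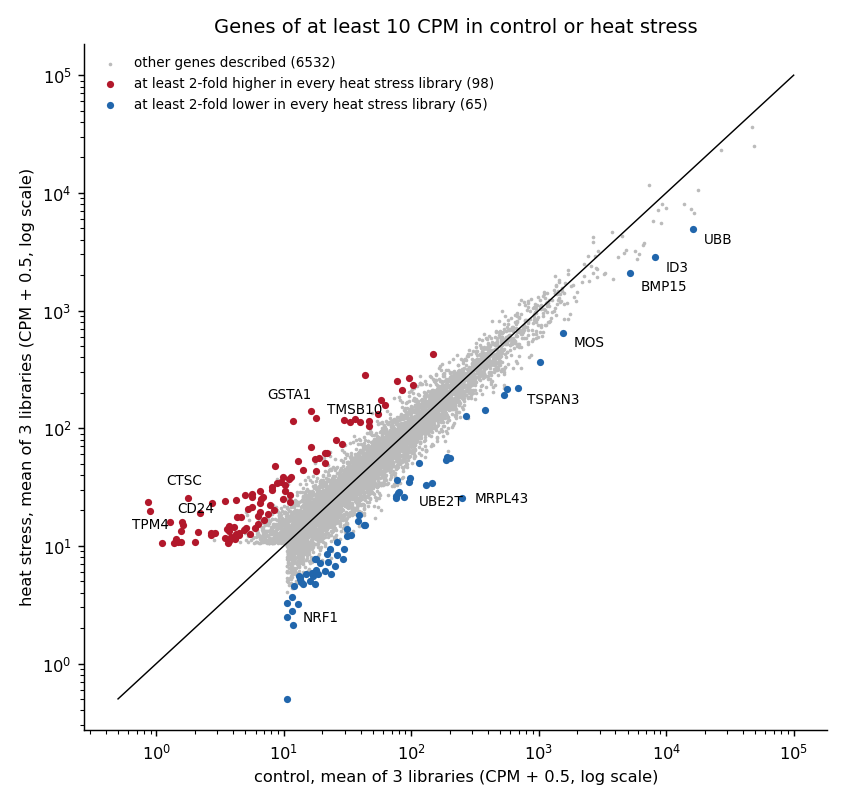
Mean CPM of heat stress (vertical axis) against mean CPM of control (horizontal axis), both plus 0.5 on log scales, with 1 point per gene described; the line marks equal values. The 98 higher genes (red) lie mostly at low control CPM, with a median of 5.99 CPM, and the 65 lower genes (blue) reach up to UBB, ID3 and BMP15 among the genes with the most counts.

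Among genes with a symbol, those highest against control in the heat stress library nearest to control were TPM4, GSTA1, GNG11 and CD24. GSTA1 encodes an alpha class glutathione transferase, an enzyme that joins glutathione to reactive compounds and that in the ovary is known from steroid producing cells (table position chromosome 7, 46538032 to 46548670). It read 14.9, 15.1 and 17.3 CPM in control and 119, 122 and 176 CPM in heat stress. Each heat stress library thus lay well above all control libraries, the mean was 8.57-fold higher, and the fitted log2 fold change was 3.14 (SE 0.50). Another enzyme of this kind, the microsomal transferase MGST2, read 17.5, 17.5 and 17.0 CPM in control and 40.0, 46.9 and 41.1 CPM in heat stress, a 2.42-fold difference without overlap. Glutathione transferase GSTM3 read 120.5, 119.8 and 112 CPM in control and 252, 237 and 216 CPM in heat stress. GCLC, the catalytic subunit of the enzyme that starts glutathione synthesis, lay on the other side of control at 130.4, 127 and 136 CPM in control and 72.1, 88.2 and 113 CPM in heat stress. The glutathione list therefore did not move as 1 block: of 16 members described 12 lay above 0, 2 were 2-fold higher in every library, and the median log2 ratio was 0.12. Over all genes described 3290 of 6695 lay above 0 and 1.46% met the higher rule. Of the 14 members that passed in both groups, 10 lay above 0 and 2 met the rule.

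Cytoskeletal and cell surface genes formed a further group among the highest. TPM4, a tropomyosin that winds along actin filaments, read 1.42, 1.32 and 0.596 CPM in control and 11.6, 14.1 and 17.5 CPM in heat stress. TMSB10, a thymosin that binds actin monomers, read 18.9, 17.4 and 16 CPM in control and 65.5, 174 and 127 CPM in heat stress, with heat stress 1 the lowest of the heated libraries and still 3.68-fold above the control mean. These were the 2 members of the actin list to meet the 2-fold rule, and its 33 described genes had a median log2 ratio of 0.13. Over all genes described, 1.46% met the higher rule. Of the 32 actin genes that passed in both groups, 1 did. CD24, a small surface glycoprotein, read 1.27, 0.305 and 0.731 CPM in control and 7.01, 16.6 and 23.2 CPM in heat stress. GNG11, a G protein gamma subunit, read 2.31, 2.04 and 2.37 CPM in control and 16.5, 33.3 and 18.5 CPM in heat stress. All 3 control values of TPM4, CD24 and GNG11 were low, at most 2.37 CPM, so these genes entered the description only through heat stress, and such genes had to be higher.

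Others of the highest genes with a symbol have varied roles. CTSC, a lysosomal protease, read 1.32, 1.28 and 1.21 CPM in control and 7.33, 36.4 and 31.9 CPM in heat stress, so that heat stress 1 stood apart from the other heated libraries while remaining above control. CYP1B1, a cytochrome P450 that hydroxylates oestradiol, read 0.729, 1.24 and 0.962 CPM in control and 7.05, 7.58 and 16.1 CPM in heat stress. In both genes heat stress 1 was the lowest heated library. ALG9, a mannosyltransferase of N-glycan assembly, read 2.39, 2.19 and 1.96 CPM in control and 10.0, 13.0 and 14.3 CPM in heat stress. SLIRP, which binds and stabilises mitochondrial mRNA, read 1.36, 1.75 and 1.39 CPM in control and 9.03, 9.15 and 12.5 CPM in heat stress. Its locus overlaps SNW1 and ALKBH1 on the opposite strand, and the library preparation did not mark strand. CTSC, CYP1B1, ALG9 and SLIRP passed 10 CPM in heat stress only, so that they had to be higher. Further up in abundance, PHB2, a prohibitin of the mitochondrial inner membrane, read 31.6, 28.2 and 27.1 CPM in control and 77.9, 137 and 132 CPM in heat stress, 3.95-fold higher, with the RNA gene SCARNA12 inside its locus. The ubiquitin ligase gene RNF181, which overlaps TMEM150A, read 75.0, 74.6 and 80.6 CPM in control and 174, 285 and 293 CPM in heat stress. Neither gene's groups overlapped.

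**Figure D2:**
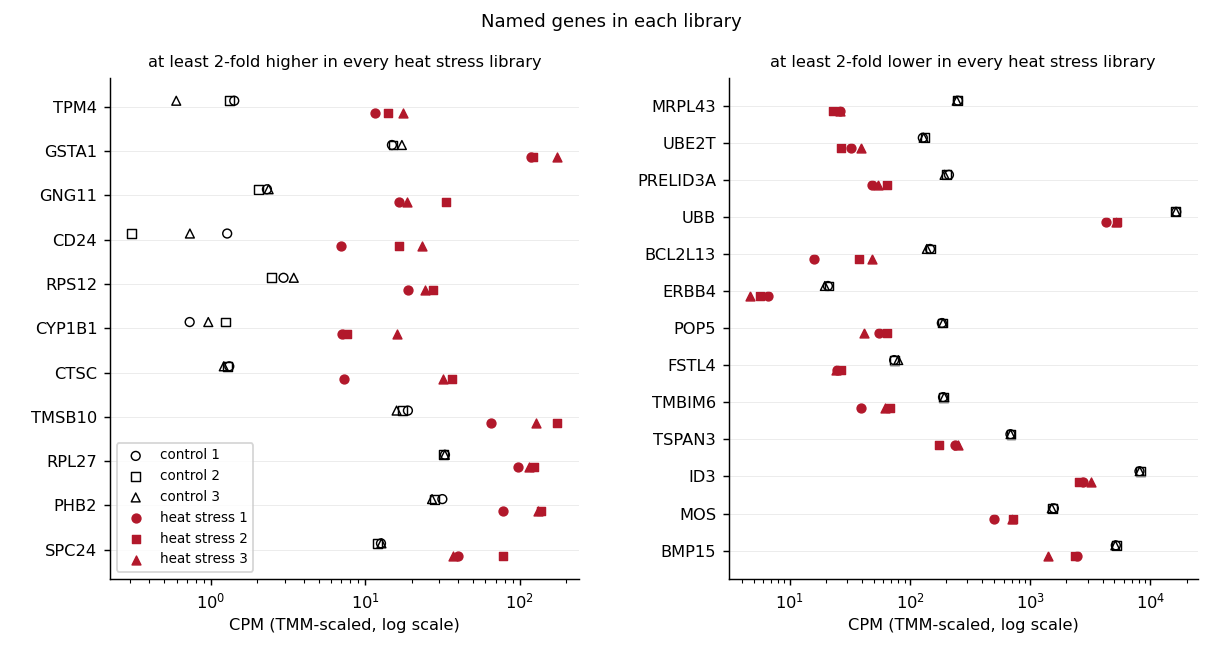
CPM (horizontal axis, log scale) in each library for 11 higher genes (left) and 13 lower genes (right), with open symbols for control 1 to 3 and filled symbols for heat stress 1 to 3. Control symbols fall on each other for most genes, and no heat stress symbol reaches a control symbol of the same gene.

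The cytosolic ribosome was the list with the largest median. All 57 of its described members lay above 0, with log2 ratios from 0.02 for RPS24 to 2.95 for RPL26 and a median of 1.06. The medians in heat stress 1, 2 and 3 were 0.80, 1.35 and 1.12, and 48, 57 and 55 members lay above their control mean in these libraries. In 19 members every heat stress library was at least 2-fold higher, against 1.46% of all genes described, and in 46 it lay above every control library, against 17.6%. Of the 57, 18 were under 10 CPM in control and were described only because they were higher; over the 39 that passed in both groups the median was 0.96 and 7 met the 2-fold rule, against 0.55% of all genes that passed in both groups. Including the members of low value, all 65 in the table lay above 0. The summed level of the list was 3159.9, 3107 and 3073 CPM in control and 4610.5, 5979 and 5267 CPM in heat stress.

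Ribosomal protein mRNAs begin with a pyrimidine tract that ties their translation to growth signals, and in frog oocytes they are known to lose their poly(A) tails during maturation. RPL27 of the large subunit read 32.8, 32 and 32.8 CPM in control and 97.1, 125 and 115 CPM in heat stress, a 3.42-fold difference with a fitted log2 fold change of 1.79 (SE 0.33). RPL11, which also binds the p53 regulator MDM2, read 39.5, 33.5 and 34.8 CPM in control and 108, 118 and 134 CPM in heat stress. In both genes the heated libraries lay close together and none approached control. From a low control level, RPS12 read 2.95, 2.48 and 3.44 CPM in control and 19.0, 27.7 and 24.3 CPM in heat stress. RPL10, also low in control, read 2.79, 4.29 and 4.14 CPM in control and 14.6, 33.1 and 24.0 CPM in heat stress. Several members of higher control level, which were picked after their values were seen, differed less. RPL5 read 233, 228 and 228 CPM in control and 424, 428 and 409 CPM in heat stress. RPLP0 of the ribosomal stalk read 166, 163 and 168 CPM in control and 283, 333 and 359 CPM in heat stress. In RPS24 the groups overlapped, at 842, 822 and 797 CPM in control and 837, 942 and 719 CPM in heat stress.

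Genes named RPL or RPS have many processed copies in mammalian genomes, and the sources used here do not give how the authors' counting shared reads among near-identical copies, so single members are uncertain. Of the 26 higher genes without a symbol, 4 are described in the table as cytosolic ribosomal proteins and 3 as subunits of the respiratory chain. RPS27A, which encodes ubiquitin joined to a ribosomal protein and is outside the naming rule, read 31.6, 30.1 and 30.3 CPM in control and 52.0, 76.5 and 51.9 CPM in heat stress, with no overlap. Translation factors had 18 of 26 members above 0, a median log2 ratio of 0.23 and 0 members that met the 2-fold rule. Over all genes described 3290 of 6695 lay above 0 and 1.46% met the higher rule, so 0 of 26 is near the background. EEF1B2, an exchange factor of elongation, read 35.4, 38.1 and 36.2 CPM in control and 83.2, 81.4 and 71.5 CPM in heat stress. Of the mRNA storage genes, the poly(A) binding protein gene PABPC1, whose mRNA also carries a pyrimidine tract, read 4.55, 5.28 and 5.44 CPM in control and 11.1, 43.8 and 21.7 CPM in heat stress. PABPC1 passed 10 CPM in heat stress only, so that it had to be higher.

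**Figure D3:**
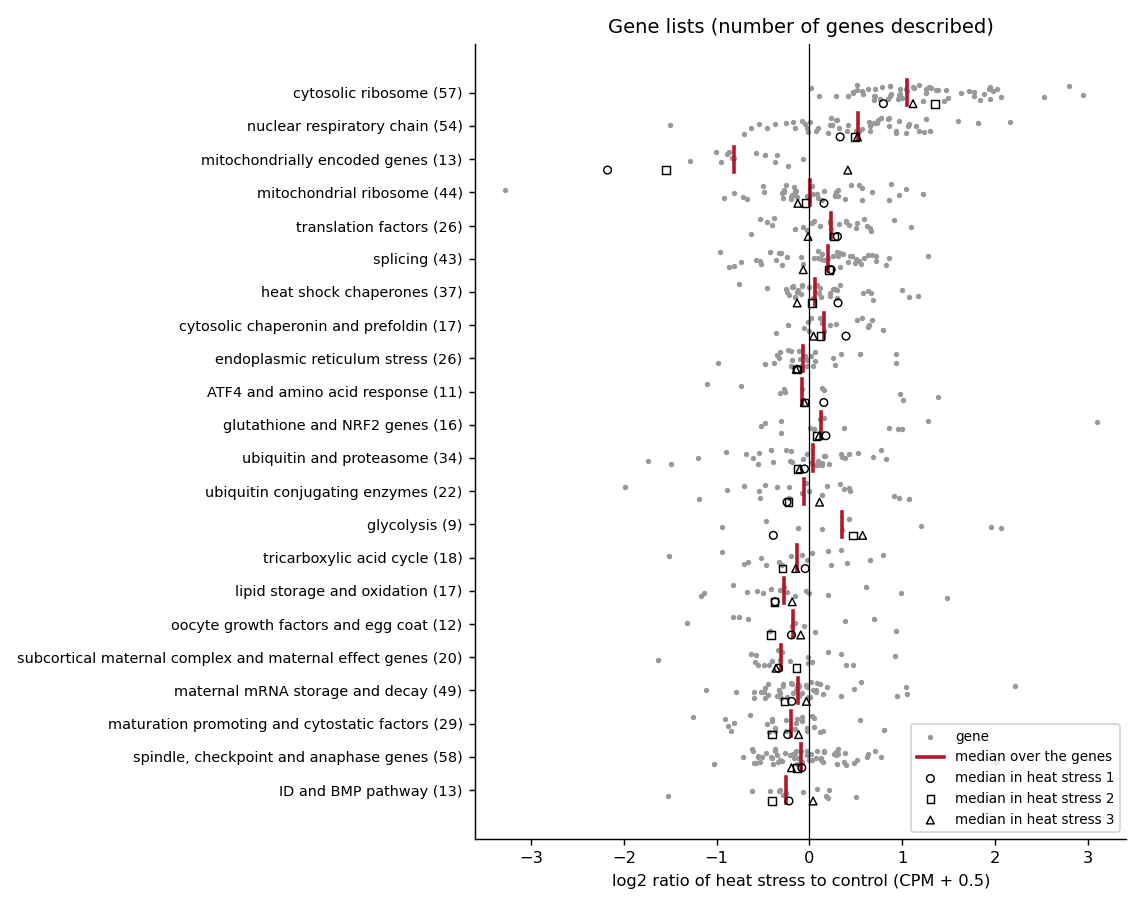
Log2 ratio of heat stress to control for each gene described (grey points) in 22 gene lists, with the list's median (red bar) and its median in each heat stress library (open symbols); the number of genes stands beside the list's name. The cytosolic ribosome lies wholly above 0, the mitochondrially encoded genes split by library, and most other lists are centred near 0.

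Nuclear genes of the respiratory chain also lay towards heat stress. Of 54 described, 41 were above 0 and the median log2 ratio was 0.52, with 0.33, 0.49 and 0.52 in heat stress 1, 2 and 3. Over all genes described, 3290 of 6695 were above 0, 1.46% met the higher 2-fold rule and 0.971% the lower. Over the 48 members that passed in both groups, 35 were above 0 and the median was 0.41. The 2-fold rule was met by COX6B1, UQCR11, NDUFB4 and ATP5MK in the higher direction and by SDHD in the lower, and UQCR11 and NDUFB4 passed 10 CPM in heat stress only, so that they had to be higher. COX6B1, a subunit of cytochrome c oxidase, read 26.0, 25.4 and 24.5 CPM in control and 54.9, 107 and 72.7 CPM in heat stress. ATP5MK, a small subunit of ATP synthase, read 55.6, 54.2 and 54.5 CPM in control and 116, 141 and 137 CPM in heat stress. SDHD, a membrane anchor of succinate dehydrogenase, read 42.4, 41.4 and 42.4 CPM in control and 16, 12.6 and 14.9 CPM in heat stress, the opposite direction without overlap. The locus of SDHD overlaps DLAT and TIMM8B.

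The 13 protein genes of the mitochondrial genome differed among the heated libraries far more than most genes. All measured genes of the mitochondrial genome, of which these 13 are a part, took 10.0 to 10.1% of counts in control. In heat stress 1, 2 and 3 they took 3.09%, 5.18% and 14.5%. All 13 lay below control in heat stress 1 and in heat stress 2, and 12 lay above it in heat stress 3. COX1 of cytochrome c oxidase read 47177, 46360.2 and 47511 CPM in control and 17245, 23004 and 68664 CPM in heat stress. ND2 of complex I read 6699, 6689 and 6704 CPM in control and 799.9, 1117 and 9347 CPM in heat stress. ATP6 of ATP synthase read 16396, 16797 and 16709.6 CPM in control and 1875, 4026 and 14509 CPM in heat stress, the 1 member with every heated library below every control library. The median log2 ratio of the list was -0.82 over the group means, and -2.17, -1.55 and 0.41 in the single libraries, so its size depends on heat stress 3. Without heat stress 3 it was -1.81. Whether this difference in mitochondrial share moved with the other results was not tested. The scaling without any gene of the mitochondrial genome gave 99 higher and 69 lower genes.

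Other mitochondrial genes went both ways. Lowest of the genes with a symbol was MRPL43, a protein of the mitochondrial ribosome (table position chromosome 14, 112066338 to 112070232), which read 250.5, 248 and 245 CPM in control and 25.9, 22.9 and 26.3 CPM in heat stress, a 9.73-fold lower mean with a fitted log2 fold change of -3.31 (SE 0.75). Its locus overlaps SEMA4G and TWNK on the opposite strand, so counts of these genes cannot be told apart. The mitochondrial ribosome as a list lay at control, with 22 of 44 members above 0 and a median log2 ratio of 0.01. PRELID3A, a carrier of phospholipid between mitochondrial membranes, read 211, 201 and 194 CPM in control and 48.0, 64.3 and 53.7 CPM in heat stress. BCL2L13, an outer membrane protein of the BCL2 family whose locus overlaps BID, read 147, 148 and 138 CPM in control and 15.8, 37.8 and 48.3 CPM in heat stress. NRF1, a transcription factor for nuclear genes of mitochondria, read 9.37, 12.3 and 11.3 CPM in control and 4.21, 1.40 and 1.22 CPM in heat stress. These 3 genes met the 2-fold rule, but NRF1 passed 10 CPM in control only, so that it had to be lower. OMA1, a protease of inner membrane stress, read 189.9, 187 and 196 CPM in control and 79.8, 83.3 and 109.8 CPM in heat stress. HAX1, a regulator of mitochondrial cell death, lay the other way at 115, 123 and 122 CPM in control and 201, 262 and 250.1 CPM in heat stress. Of the citrate cycle, IDH3A read 49.9, 41.6 and 35.8 CPM in control and 19.5, 19.9 and 4.16 CPM in heat stress, with heat stress 3 far below the others and ACSBG1 on the opposite strand of its locus.

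The ubiquitin genes held the smallest p-value of the comparison. UBB, a gene of head-to-tail ubiquitin copies that serves as a reserve of ubiquitin and is known to be induced by heat in dividing cells (table position chromosome 12, 59171289 to 59172841), read 16402, 16264 and 16308 CPM in control and 4263, 5231 and 5209 CPM in heat stress. The heated mean was 3.33-fold below control and the heated libraries lay close together, with a fitted log2 fold change of -1.74 (SE 0.25) and an adjusted p of 0.249 by edgeR. No heated library reached a control library. UBE2T, a conjugating enzyme of the Fanconi anaemia pathway, read 128, 133 and 129.8 CPM in control and 32.3, 26.5 and 38.7 CPM in heat stress, 3.96-fold lower. UBE2C, which serves the anaphase-promoting complex, read 541, 525 and 528 CPM in control and 197, 176 and 325 CPM in heat stress, missing the 2-fold rule in heat stress 3. Elsewhere the system was mixed: 18 of 34 genes of ubiquitin and the proteasome and 9 of 22 conjugating enzymes lay above 0, beside 3290 of the 6695 genes described. The proteasome lid gene PSMD8 read 531, 539.5 and 543 CPM in control and 283, 325 and 258 CPM in heat stress. The proteasome core gene PSMB7 lay the other way at 23.0, 28.0 and 23.1 CPM in control and 49.4, 39.5 and 44.0 CPM in heat stress.

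Among the genes an oocyte is known for, the growth factor BMP15 read 5154, 5251 and 5107 CPM in control and 2434, 2373 and 1393 CPM in heat stress, 2.50-fold lower and lowest in heat stress 3. Its partner GDF9, outside the naming rule, read 226, 223 and 231 CPM in control and 185, 161 and 160.2 CPM in heat stress, also without overlap but far from 2-fold. ID3, an inhibitor of helix-loop-helix factors and a target of BMP signals in many cells, read 8107, 8276 and 8149.6 CPM in control and 2757, 2565 and 3184 CPM in heat stress, with a fitted log2 fold change of -1.53 (SE 0.26). In the ID and BMP list 5 of 13 genes lay above 0 and the median was -0.25. Its receptor gene BMPR1A read 35.8, 32.5 and 34.7 CPM in control and 26.9, 22.2 and 35.3 CPM in heat stress, and heat stress 3 met control. MOS, the kinase that holds the egg at metaphase II through the MAP kinase path, read 1573, 1526 and 1512 CPM in control and 497, 720.3 and 710.5 CPM in heat stress. WEE2, the oocyte kinase that inhibits CDK1, read 1717, 1757 and 1757 CPM in control and 905, 832 and 1058 CPM in heat stress. Of the 29 genes of maturation promoting and cytostatic factors, 7 lay above 0 and MOS alone met the 2-fold rule, with a median log2 ratio of -0.20. Over all genes described 3290 of 6695 lay above 0 and 0.971% met the lower rule, so 1 of 29 is near the background.

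Egg coat and maternal effect genes split. The coat gene ZP3 read 142, 146 and 138 CPM in control and 169, 300.1 and 344 CPM in heat stress. The coat gene ZP4 read 701, 711 and 704 CPM in control and 795, 1035 and 1593 CPM in heat stress, and both were higher in every heated library. OOEP of the subcortical maternal complex read 519, 518 and 519 CPM in control and 876, 965 and 1109 CPM in heat stress, also higher without overlap. In contrast, TCL1A, a coactivator of AKT, read 24.8, 25.3 and 26.3 CPM in control and 6.94, 9.46 and 7.25 CPM in heat stress. The oocyte linker histone gene H1-8 read 4206, 4218 and 4149.8 CPM in control and 2292, 3038 and 3136 CPM in heat stress, and neither gene's groups overlapped. TCL1A passed 10 CPM in control only, so that it had to be lower. BTG4, the adaptor that brings the CCR4-NOT deadenylase to maternal mRNA, read 15728, 15889 and 15750.4 CPM in control and 7676, 5481 and 8798 CPM in heat stress. CNOT11, a subunit of that deadenylase, lay the other way at 111, 110.1 and 111 CPM in control and 235, 246 and 208 CPM in heat stress. Across the lists, 6 of 20 subcortical maternal complex and maternal effect genes lay above 0 (median -0.30) and 17 of 49 genes of maternal mRNA storage and decay did (median -0.12), beside 3290 of the 6695 genes described.

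The genes with the most counts in control were mostly lower. They were picked by their control level, which is also the base of the ratio, so this choice alone can bring values below 0. Of the 100 most abundant, 72 lay below 0, with a median log2 ratio of -0.30, and 40 had every heated library below every control library. Without genes of the mitochondrial genome, 60 of 88 lay below 0, with a median of -0.21, and 39 had every heated library below every control library. Over all genes described, 3405 of 6695 lay below 0 and 21.6% had every heated library below every control library. Of all 117 genes at 1000 CPM or more in control, 0 were 2-fold higher in every library and 5 were 2-fold lower, against 1.46% and 0.971% over all genes described. DNMT1, the maintenance DNA methyltransferase and the gene with the highest control CPM, read 48976, 48685 and 48710.5 CPM in control and 30593, 26838 and 17206 CPM in heat stress, lowest in heat stress 3. ACCSL, which resembles plant aminocyclopropane carboxylate synthase, read 17553, 17546 and 17732 CPM in control and 8352, 10039 and 13456 CPM in heat stress. SRPX, a secreted sushi domain protein, read 9080.4, 9153 and 9201 CPM in control and 6042, 4335 and 6324 CPM in heat stress. PCNA, the clamp of DNA replication, read 8434, 8591 and 8625 CPM in control and 7805, 5801 and 7989 CPM in heat stress, nearest to control of these. The 10 genes of highest control CPM took 19.9 to 20% of counts in control and 11.3%, 12.4% and 18% in heat stress 1, 2 and 3, heat stress 3 being the library with the large mitochondrial share. Shares of counts are bound to each other, so the level of this class moves with the scaling.

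**Figure D4:**
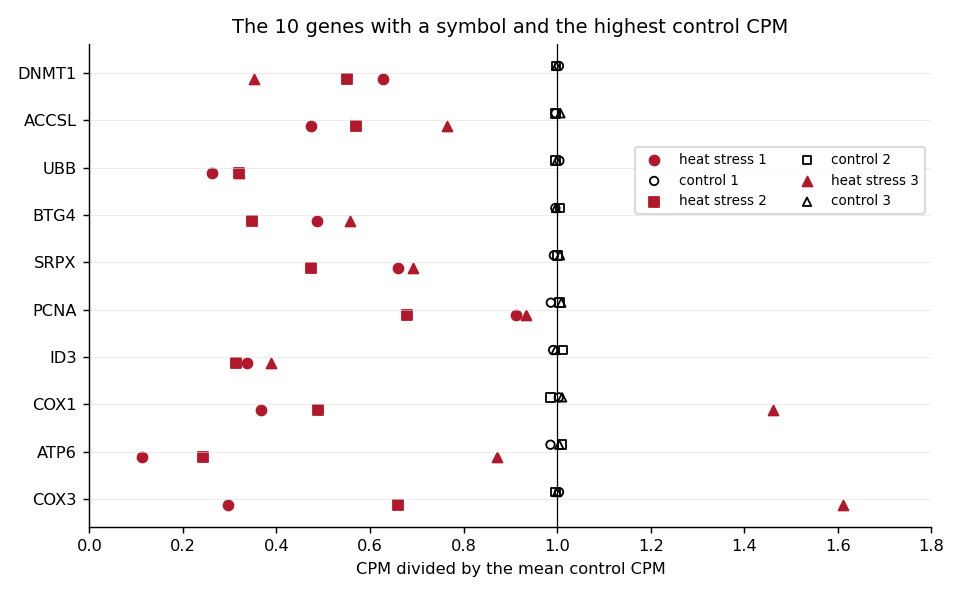
CPM in each library divided by the mean control CPM (horizontal axis) for the 10 genes with a symbol that had the highest control CPM; open symbols are control 1 to 3 and filled symbols heat stress 1 to 3. The nuclear genes lie below 1 in every heated library, whereas COX1 and COX3 of the mitochondrial genome lie above 1 in heat stress 3.

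Genes of the heat shock response lay on both sides of control at MII. Of 37 chaperone genes described, 21 lay above 0 and 0 met the 2-fold rule in either direction, and the median log2 ratio was 0.06. With 1.46% higher and 0.971% lower over all genes described, a count of 0 in a list of this size is near the background. The members of smallest p were HSPA8 and HSPA4. HSPA8, the constitutive cytosolic HSP70, read 168, 171 and 166 CPM in control and 417, 290.1 and 302 CPM in heat stress. HSPA4, an HSP110 type partner of HSP70, read 29.6, 28.7 and 26.5 CPM in control and 97.2, 51.0 and 44.2 CPM in heat stress, both highest in heat stress 1 and without overlap. HSPH1, a related exchange factor, read 179.7, 180.1 and 184 CPM in control and 379, 273 and 212 CPM in heat stress. Outside the naming rule and chosen after their values were seen, HSP90AB1 read 1012, 1003 and 1030.3 CPM in control and 1147, 1152 and 877 CPM in heat stress. DNAJB1, an inducible partner of HSP70, read 34.4, 37.7 and 40.1 CPM in control and 47.6, 50.6 and 23.4 CPM in heat stress, and HSPB1, a small heat shock protein, read 42.6, 45.1 and 40.4 CPM in control and 28.1, 40.0 and 45.3 CPM in heat stress. All 3 had overlapping groups. The list's medians were 0.31, 0.03 and -0.13 in heat stress 1, 2 and 3, so its sign depends on the library. The cytosolic chaperonin and prefoldin lay slightly higher, with 12 of 17 above 0 and a median of 0.16, beside 3290 of the 6695 genes described above 0.

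Other stress genes showed single members apart and lists near 0. ATF4, the transcription factor of the integrated stress response, read 48.7, 46.2 and 48.5 CPM in control and 105, 88.8 and 80.5 CPM in heat stress. Its target ASNS, which makes asparagine from aspartate, read 139, 145 and 138 CPM in control and 305, 287 and 243 CPM in heat stress. The groups did not overlap for either gene, yet only 5 of 11 genes of the ATF4 list lay above 0, beside 3290 of the 6695 genes described. SHMT2, a mitochondrial enzyme of folate use in the same list, read 68.7, 71.5 and 74.4 CPM in control and 32.2, 36.9 and 58.9 CPM in heat stress. In the endoplasmic reticulum the chaperone gene HYOU1 read 121, 118 and 115 CPM in control and 37.3, 53.1 and 87.0 CPM in heat stress. CALR, another chaperone there, read 15.4, 13.2 and 13.7 CPM in control and 31.7, 28.9 and 21.7 CPM in heat stress, the opposite direction. Of the antioxidant enzymes, PRDX2 read 711, 700.5 and 695 CPM in control and 344, 409 and 483 CPM in heat stress, lower without overlap. TMBIM6, a membrane protein that limits calcium release and cell death, met the 2-fold rule at 188, 190.4 and 192 CPM in control and 38.9, 68.7 and 62.0 CPM in heat stress.

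Metabolic and division genes added single members. Of 9 glycolytic genes described, ENO1 read 3.50, 3.20 and 2.87 CPM in control and 7.47, 18.1 and 16 CPM in heat stress. GAPDH, whose groups also did not overlap, read 8.72, 7.99 and 8.50 CPM in control and 16.1, 46.0 and 47.9 CPM in heat stress. PGK1 went the other way in heat stress 1 and 2, at 24.9, 24.5 and 24.5 CPM in control and 11.6, 16 and 25.5 CPM in heat stress. The glycolytic list had 6 of 9 above 0 and a median of 0.35, but -0.39 in heat stress 1. Its members ENO1, GAPDH and PKM passed 10 CPM in heat stress only and had to be higher, and over the 4 members that passed in both groups the median was 0.24 with 3 above 0. ACSL4, which activates arachidonic acid and other polyunsaturated fatty acids, read 23.1, 20.5 and 20.2 CPM in control and 49.4, 58.0 and 73.9 CPM in heat stress. The list of lipid storage and oxidation genes had 5 of 17 above 0, beside 3290 of the 6695 genes described. In it PLIN2, the coat protein of lipid droplets, read 459, 463 and 458 CPM in control and 329, 294 and 311 CPM in heat stress. SPC24 of the NDC80 kinetochore complex read 12.6, 12 and 12.7 CPM in control and 40.2, 77.9 and 37.1 CPM in heat stress, the only member of 58 spindle and checkpoint genes to meet the 2-fold rule. With 1.46% higher over all genes described, 1 of 58 is near the background. CSE1L, which returns importin alpha to the cytoplasm, read 10.5, 10.7 and 10.7 CPM in control and 26.2, 24.7 and 28.4 CPM in heat stress. KPNA7, the importin alpha of oocytes, lay below control at 4732, 4669 and 4715 CPM in control and 2325, 2992 and 3953 CPM in heat stress. SNRPD2 of the splicing core read 48.1, 46.2 and 45.0 CPM in control and 96.1, 142 and 104 CPM in heat stress.

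The remaining lower genes of the rule were few in kind. POP5, a protein of RNase P and RNase MRP, read 184, 187 and 188 CPM in control and 54.7, 64.0 and 41.5 CPM in heat stress. RPP21 of the same enzymes lay the other way at 112, 118 and 119 CPM in control and 166, 331 and 335 CPM in heat stress. TSPAN3, a tetraspanin, read 684, 691 and 686 CPM in control and 235, 173 and 249 CPM in heat stress. FSTL4, a follistatin-like protein, read 73.7, 73.7 and 79.7 CPM in control and 24.6, 26.6 and 24.0 CPM in heat stress, with the heated libraries close together. ERBB4, a receptor of neuregulins, read 20.7, 21.1 and 19.5 CPM in control and 6.60, 5.65 and 4.67 CPM in heat stress. SGF29, a reader of histone methylation in the SAGA complex, read 374, 368 and 388 CPM in control and 130.3, 119.8 and 174 CPM in heat stress. The core histone gene H2BK1 read 23.7, 22 and 23.0 CPM in control and 1.92, 8.28 and 5.54 CPM in heat stress. COA7, which helps assemble cytochrome c oxidase, read 27.0, 30.8 and 29.4 CPM in control and 10.5, 10.1 and 5.91 CPM in heat stress. For each of these except RPP21, every heated library lay below every control library. ERBB4, H2BK1 and COA7 passed 10 CPM in control only, so that they had to be lower.

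Long noncoding RNA genes met the 2-fold rule in like numbers, 8 higher (3.94%) and 7 lower (3.45%) of 203 described, against 1.46% and 0.971% over all genes described. Most of these lncRNA genes passed 10 CPM in a single group, so that their direction was set by that filter. The lncRNA genes here were picked after their values were seen. ENSSSCG00000048856 (table position chromosome 2, 6751519 to 6757180) read 42.5, 42.0 and 44.4 CPM in control and 409, 195 and 243 CPM in heat stress. ENSSSCG00000060237 read 0.506, 0.362 and 0.289 CPM in control and 20.3, 26.3 and 10.7 CPM in heat stress. It passed 10 CPM in heat stress only, so that it had to be higher. The lncRNA ENSSSCG00000054652, counted among the lower genes, read 30.2, 0 and 0.192 CPM in control and 0, 0 and 0 CPM in heat stress. Its control level came from control 1 alone, so it shows no difference between the groups. Of the 163 genes that met the 2-fold rule, 39 overlap another gene.

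The genes just inside and outside the 2-fold rule show how it divides the data. The higher genes ended with FBXL2, whose nearest heated library was 2.0-fold above control, and TOMM20 just missed at 1.98-fold. The lower genes ended with RHEBL1 at 2.03-fold, and LAPTM4A just missed at 1.99-fold. A fold of 1.5 gave 258 higher and 248 lower genes, and a fold of 3 gave 31 and 6. Of the 98 higher genes, 33 passed 10 CPM in both groups and 65 in heat stress only, and of the 65 lower genes 33 passed in both and 32 in control only. Heat stress 1 was the library nearest to control for 65 of the higher genes.

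The higher genes were weighted towards short transcripts but held long ones too, with 22 of the 98 at 3000 to 6000 nt and 9 over 6000 nt. The median transcript length, taken from the ratio of counts to FPKM, was 1634.5 nt in the 98 higher genes, 2944 nt in the 65 lower genes and 4113 nt over all described. Among the 66 genes under 500 nt, 13.6% were 2-fold higher in every library and 1.52% were 2-fold lower, and among the 241 genes of 500 to 1000 nt 8.71% and 3.32% were. Over 6000 nt, the shares were 0.53% and 0.64% of 1712 genes. Of the 98 higher genes, 65 passed 10 CPM in heat stress only and had to be higher, which bears on these shares and on the median length. Among genes that passed in both groups, the higher shares were 5.56% under 500 nt and 3.72% at 500 to 1000 nt. They were 0.13% over 6000 nt and 0.55% over all lengths. The median log2 ratio was 0.41 in the shortest class, 0.29 in the next, 0.02 at 1000 to 1500 nt and -0.02 over 6000 nt. Without the ribosome and respiratory chain lists, whose genes are short, the medians of the first 2 classes were 0.26 and 0.18, and among genes that passed in both groups they were 0.28 and 0.23. Heat stress 1 without those lists gave -0.04 at 500 to 1000 nt, so this class did not keep its direction in every library. Whether transcript length, RNA quality or library preparation has a part in the result was not tested.

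**Figure D5:**
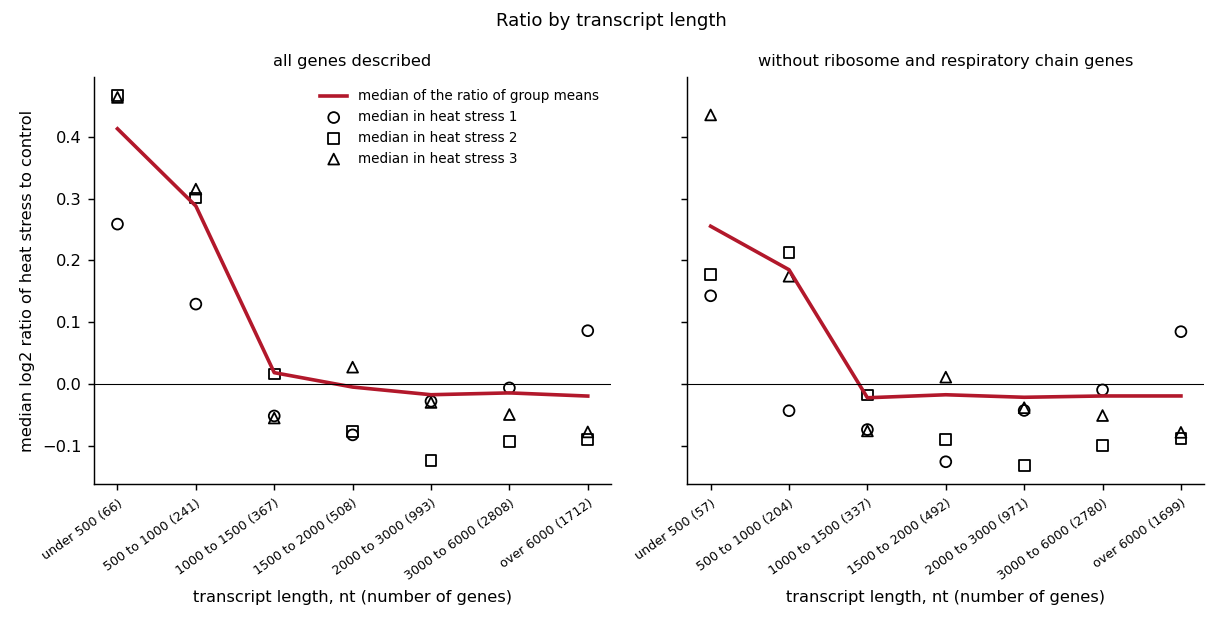
Median log2 ratio of heat stress to control (vertical axis) in 7 classes of transcript length (horizontal axis, with the number of genes), for all genes described (left) and without the cytosolic and mitochondrial ribosome and nuclear respiratory chain lists (right). The red line joins the medians of the ratio of group means and open symbols show each heat stress library; the line is above 0 in the first 2 classes and near 0 beyond 1000 nt, while heat stress 1 is below 0 at 500 to 1000 nt on the right.

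Markers of the oocyte were present in every library, and those of other cells were low with exceptions. Of 18 oocyte markers in the table, 0 were at 0, and their sum was 36267, 36455 and 36137 CPM in control and 19506, 19288 and 23660.3 CPM in heat stress, with 5 of 16 described above 0. Of 40 markers of cumulus and granulosa cells, 32 were in the table. They summed to 1220.5, 1245 and 1257 CPM in control and 1646, 1332 and 1289 CPM in heat stress, mostly through RGS2, which oocytes also hold. Of the 32, 20 lay above 0, mostly at values under 10 CPM in both groups. Of the 6 described, 4 lay above 0, beside 3290 of all 6695 genes described. Their log2 ratios ran from -0.62 for FST to 1.95 for TIMP1, which passed 10 CPM in heat stress only. The markers thus did not all move together. The markers given here were picked after their values were seen. CYP11A1, the first enzyme of steroid synthesis, read 0, 0 and 0.115 CPM in control and 5.97, 6.37 and 15.1 CPM in heat stress. GJA1, the gap junction protein of cumulus cells, read 0.668, 0.191 and 1.56 CPM in control and 6.96, 7.15 and 13.4 CPM in heat stress. GATA6, a transcription factor of granulosa cells, read 0, 0 and 0 CPM in control and 1.26, 1.52 and 1.59 CPM in heat stress. Some other markers were lower in the heated mean or close to control, with FST at 49.0, 48.5 and 50.3 CPM in control and 43.4, 24.8 and 27.8 CPM in heat stress and GATA4 at 86.9, 86.4 and 82.4 CPM in control and 42.8, 48.5 and 119.7 CPM in heat stress. CYP19A1, the aromatase of granulosa cells, read 0.587, 0.534 and 0.827 CPM in control and 0.486, 0.545 and 0.719 CPM in heat stress. Of the 32 markers, 13 to 15 were at 0 in the control libraries and 9 to 13 in the heated ones. The receptor gene LHCGR, AMH, PTX3, HSD17B1 and IGFBP2 were at 0 in all 6 libraries. CYP11A1, GJA1 and GATA6 lay above every control library in each heated library, with means under 10 CPM in both groups. Whether cells that carry these markers have a part in the values of genes such as GSTA1, CD24, TPM4 and CTSC was not tested. Markers of theca and stroma summed to 4.75 to 12.7 CPM over the 6 libraries, those of blood and immune cells to 0.797 to 5.51 CPM, and those of endothelium to 23.6 to 40.6 CPM.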

How the data were processed

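RNA of pig MII oocytes was sequenced as full-length cDNA (oligo(dT) primed SMARTer, amplified by PCR, fragmented, paired-end on NovaSeq), per the labels' protocols, with no strand marking and no molecular identifiers. The authors deposited 1 table of gene counts and FPKM. Tools listed in the submitters' processing notes, with no role stated, are HISAT2 2.2.1, cutadapt 1.9, edgeR, StringTie 2.1.6 and DESeq2. No source used here names the genome build. The deposited counts were used for all values and tests, and the deposited FPKM only with the counts, to give transcript lengths. The table's 6 further columns of per-sample values belong to no sample here and were not used.

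Counts were scaled by TMM in edgeR 4.0.16 under R 4.3.3. The 3 control columns were averaged as 1 preparation, and a quasi-likelihood fit of 7 libraries (mean control, 3 heat stress, 3 heat stress plus L-Asp for spread, 4 residual degrees of freedom) tested 15012 genes with Benjamini-Hochberg adjustment at 0.05. DESeq2 1.42.0 was an alternative, as were other scalings, filters, pseudocounts, folds and the omission of each library. The scripts were tested on simulated data. Genes with a mean of at least 10 CPM in either group were described. Named genes have a symbol and were the 15 highest and 15 lowest in the heat stress library nearest to control, the 10 of smallest p in each direction, up to 5 members of smallest p per list with any 2-fold member, the 10 most abundant in control and the 5 of largest spread per group. Genes outside this rule are marked as such. The members and gene lists were chosen with earlier results of these data known. Counting error is small at these depths, and the spread between libraries sets the precision. A few genes that the rule names are not reported here.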

Additional observations from a re-analysis of the deposited data

How the results depend on the processing

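At an adjusted p of 0.05, edgeR's quasi-likelihood count of genes was 0 in the comparison as made, with DESeq2's size factors in edgeR, with a minimum mean count of 50 and with control and heat stress libraries alone. It was 9 with no filter on low counts, 1 when only genes of at least 10 CPM were tested, 0 to 1 when each library was left out in turn, and 172 with DESeq2. Counting each control column as a replicate gave 433 genes with 9 libraries, and 378 with the replicate block added. Deviations from the group mean of control and heat stress libraries of the same number correlated at -0.024, -0.006 and 0.0002. The control columns are close to copies of each other, so these values cannot decide whether the replicate numbers pair the libraries. The 98 higher and 65 lower genes became 56 and 42 at a minimum of 20 CPM, 234 and 208 at 1 CPM, 258 and 248 at a fold of 1.5, and 31 and 6 at a fold of 3. With library totals in place of TMM the lower count was 32. Leaving out each library in turn gave 97 to 181 higher and 62 to 180 lower genes. Of 39 lists with at least 5 genes described, 19 kept the sign of their median under every setting run. The direction of 0 of 39 leading genes was reversed. These genes were picked on these libraries for lying far from control or for a small p, so a reversal was hardly possible. The causes were not tested.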
